A study of Mus musculus with 6 samples.

Results

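Heme breakdown and iron handling were followed here in mouse liver through 10 genes, *Hmox1*, *Blvra*, *Blvrb*, *Alas1*, *Fth1*, *Ftl1*, *Slc40a1*, *Tfrc*, *Hamp* and *Trf*, taken by symbol from the 55401 genes of the deposited expression table. Each symbol matched 1 entry. All 10 had a mean of at least 1 FPKM (fragments counted relative to transcript length in kilobases and to library depth) over the 6 libraries and were among the 10051 genes tested. The mice were C57BL/6, and 3 groups of 2 libraries were compared. Control mice carried no treatment in the labels (replicates 1 and 3), APAP mice were studied 6 h after an intraperitoneal dose of 400 mg/kg acetaminophen (APAP, paracetamol, a drug that injures the liver in overdose; replicates 1 and 3), and COS+APAP mice had additionally been given costunolide (COS, a sesquiterpene lactone of medicinal plants) at 20 mg/kg, 12 h and 40 min ahead of the APAP injection (replicates 2 and 3). Age, sex, vehicle and the hour of collection of the controls are not given in the sources used here. Groups follow the titles, source names and treatment fields. A protocol sentence that assigns COS to the samples numbered 5 and 6 goes against those fields if samples are numbered in accession order. With the APAP and COS+APAP names exchanged, every contrast between them would have the opposite sign. COS libraries carry a title prefix of 2 and all others a prefix of 1, so a batch behind that prefix and COS cannot be told apart. Nothing states that the libraries of a group are separate animals, so p-values measure the spread between libraries, which may be technical. Where 2 values are given below for the mice of a group, they are those of its 2 libraries.

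Heme oxygenase 1 opens the heme ring and releases iron, carbon monoxide and biliverdin, which biliverdin reductases turn into bilirubin. The released iron is stored in ferritin, a shell built of heavy and light chains, or leaves the cell through ferroportin, whose degradation is triggered by hepcidin, a peptide hormone secreted by hepatocytes. Iron circulates on transferrin and enters cells through the transferrin receptor, and iron regulatory proteins tune ferritin, ferroportin and transferrin receptor after transcription by binding hairpins called iron-responsive elements in their mRNAs. RNA levels do not measure the part of that control that acts on translation.

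The elements are shown because they separate the storage and export genes from the uptake gene. Transcripts of GENCODE release M21 (GRCm38) were scanned for a hairpin pattern. It was a bulged C, 5 paired bases, the loop CAGTG followed by A, C or T, and 5 paired bases. A match was found in 4 of the 10 genes. The 5′ UTR held it in *Fth1*, *Ftl1* and *Slc40a1* (exon 1 in each), and the 3′ UTR held 4 copies in *Tfrc* (exon 19). The pattern occurred in the 5′ UTR of 23 of 20597 genes (0.112%) and in the 3′ UTR of 100 of 20995 genes (0.476%). Each is printed 5′ to 3′ as 30 bases of the cDNA strand, with the bulged C and the loop in capitals.
*Fth1*, chr19:9982732-9982761, plus strand: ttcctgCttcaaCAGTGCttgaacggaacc
*Ftl1*, chr7:45459778-45459807, minus strand: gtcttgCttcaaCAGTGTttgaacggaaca
*Slc40a1*, chr1:45925464-45925493, minus strand: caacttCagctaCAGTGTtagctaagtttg
*Tfrc*, chr16:32631219-32631248, plus strand: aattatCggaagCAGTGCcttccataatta
*Tfrc*, chr16:32631598-32631627, plus strand: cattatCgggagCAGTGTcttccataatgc
*Tfrc*, chr16:32631663-32631692, plus strand: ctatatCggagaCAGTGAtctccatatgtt
*Tfrc*, chr16:32631710-32631739, plus strand: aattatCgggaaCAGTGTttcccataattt
A match describes the letters and is not evidence that a protein bound there in these livers.

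Hepcidin is encoded by *Hamp*, and mice carry a neighbouring copy, *Hamp2*. Both promoters are shown because *Hamp* passed the test in the comparisons described with the hepcidin values and *Hamp2* did not. The 250 bases before the RefSeq start (GRCm38.p6) were identical at 227 positions (90.8%) in a pairwise alignment. Capitals mark GGCGCC, the core of a BMP response element, and TTCNNNGAA, a site of the STAT kind, each searched on both strands.
*Hamp*, chr7:30944030-30944279, minus strand: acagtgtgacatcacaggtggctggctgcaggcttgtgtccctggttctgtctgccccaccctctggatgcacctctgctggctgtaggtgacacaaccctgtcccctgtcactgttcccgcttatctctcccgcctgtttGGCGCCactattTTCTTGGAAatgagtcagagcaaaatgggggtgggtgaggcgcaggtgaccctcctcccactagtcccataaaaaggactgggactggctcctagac
*Hamp2*, chr7:30924182-30924431, minus strand: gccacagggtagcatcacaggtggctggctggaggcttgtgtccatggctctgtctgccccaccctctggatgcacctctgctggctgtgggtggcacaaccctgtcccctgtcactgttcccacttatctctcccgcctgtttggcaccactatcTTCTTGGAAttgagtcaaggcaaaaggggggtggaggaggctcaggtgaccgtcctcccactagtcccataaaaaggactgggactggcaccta
*Hamp* held GGCGCC 109 bases and TTCNNNGAA 97 bases before the start. At the aligned place *Hamp2* differed by G4A, counted from 1 at the 5′ end of GGCGCC with the base of *Hamp* first, while its STAT-type site was the same. The windows also differed at other positions. Whether any of these differences bears on the RNA of either gene was not tested, and a motif match is not evidence of binding. Of 32851 promoter windows of this length, 9.59% held GGCGCC and 7.02% TTCNNNGAA. Promoter entries were found for 7 of the 10 genes. *Hmox1*, *Slc40a1* and *Trf* had no entry and were not searched. Apart from *Hamp*, an upstream window of *Tfrc* also held GGCGCC and one of *Alas1* the STAT-type site. The core of the antioxidant response element, TGANNNNGC (35.2% of all windows), stood in windows of *Blvra* and *Blvrb*, the metal response core TGCNCNC (44.4%) in *Alas1* and *Tfrc*, and the E-box CACGTG (6.02%) in none of the 7.

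The libraries held 71115112 to 76669799 estimated counts, of which transcripts of the mitochondrial genome took 7.373% to 16.09%. The 8 hepatocyte markers summed to 56207 to 72370 FPKM in every library. The extraction text speaks of adipose tissue, while the tissue field and these markers say liver. Markers of other cells differed between the groups. The 8 erythroid markers summed to 298 and 269 FPKM in the controls, 1492 and 1075 in APAP libraries and 309 and 316 in COS+APAP libraries. Most of it was globin RNA, with *Epb42* at 0 in all libraries and *Slc4a1* at 0.03 FPKM or less. *Alas2* of this list did not pass in any comparison. The 11 Kupffer cell markers summed to 121 to 141 FPKM in control, 137 to 192 in APAP and 143 to 147 in COS+APAP. In COS+APAP against APAP *Marco* rose by 0.62 and *Adgre1* fell by 1.64, both near the threshold (edgeR adjusted p = 0.0477 and 0.0415), and the others did not pass. The 7 monocyte markers summed to 4.23 to 5.52, 22.7 to 43.5 and 5.71 to 5.74 FPKM in the same order, with *Ccr2* and *Ly6c2* at 0.2 FPKM or less throughout. The higher sum in APAP came mostly from *Cd14* (1.21 and 0.85 FPKM in control, 31.76 and 14.51 in APAP) and *Thbs1* (0.2 and 0.1, 7.69 and 3.64). *Plac8* did not pass after APAP. The 7 neutrophil markers summed to 4.08 to 6.68, 10.8 to 32.2 and 2.58 to 4.04 FPKM, and *Ly6g* was listed at 0 in all 6 libraries. Sinusoidal endothelial markers (33.5 to 39.0, 39.1 to 40.5 and 23.0 to 25.4 FPKM) and stellate cell markers (26.1 to 26.9, 31.4 to 34.5 and 10.7 to 13.96 FPKM) had their lowest sums in COS+APAP. In COS+APAP against APAP, where 22.4% of all tested genes were called, the endothelial markers did not move as one. Against APAP, 6 of 8 fell in COS+APAP (0 to 6 with 1 library left out), *Stab2* did not pass, and *Stab1* rose, at 3.21 and 3.46 FPKM in control libraries, 4.22 and 4.54 in APAP and 7.46 and 7.66 with COS+APAP (adjusted p = 0.00952, lost without APAP replicate 1 at 0.0509). In bulk tissue, fewer cells of a type and less RNA per cell cannot be told apart.

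**Figure D1:**
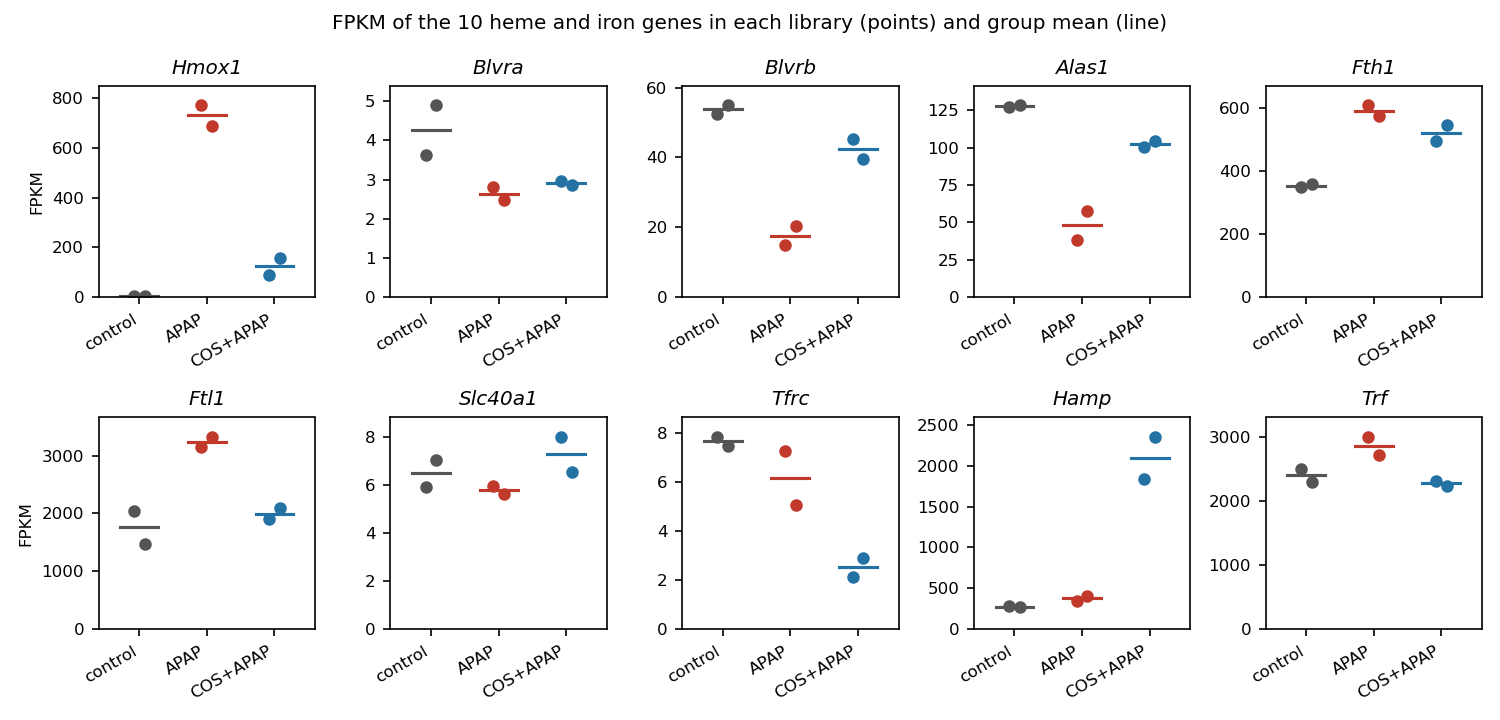
FPKM (vertical axis, linear from 0, a separate scale for each gene) of the 10 genes in the 2 control, 2 APAP and 2 COS+APAP libraries. Points are libraries and short lines group means. *Hmox1* peaked in APAP at 771.52 and 689.08 FPKM, while *Hamp* was highest in COS+APAP at 1837.65 and 2358.53 FPKM.

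The question put to the first comparison was what the toxic dose did to these transcripts within 6 h. *Hmox1* and both ferritin chains rose, *Blvrb* and *Alas1* fell, and the iron transport genes *Slc40a1*, *Tfrc* and *Trf* did not pass the test. Of the 10 genes 4 rose, 2 fell and 4 did not pass with edgeR's quasi-likelihood test at a Benjamini-Hochberg adjusted p below 0.05, beside 45.4% of all tested genes called (23.3% higher and 22.1% lower). These counts describe genes chosen by name and were not tested against that share. Their median log2 fold change was 0.19, against -0.0024 over all tested genes. The COS+APAP group was compared with APAP, to ask what the pretreatment changed, and with control. COS+APAP against APAP gave 3 rises and 2 falls, beside 22.4% of all genes called (11.2% higher and 11.1% lower), and COS+APAP against control 3 rises and 1 fall, beside 21.0% (10.7% and 10.3%). The comparisons share libraries and are not independent of each other. The libraries of the groups did not overlap for 9, 10 and 7 of the 10 genes, beside 76.2%, 68.5% and 67.3% of all tested genes.

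**Figure D2:**
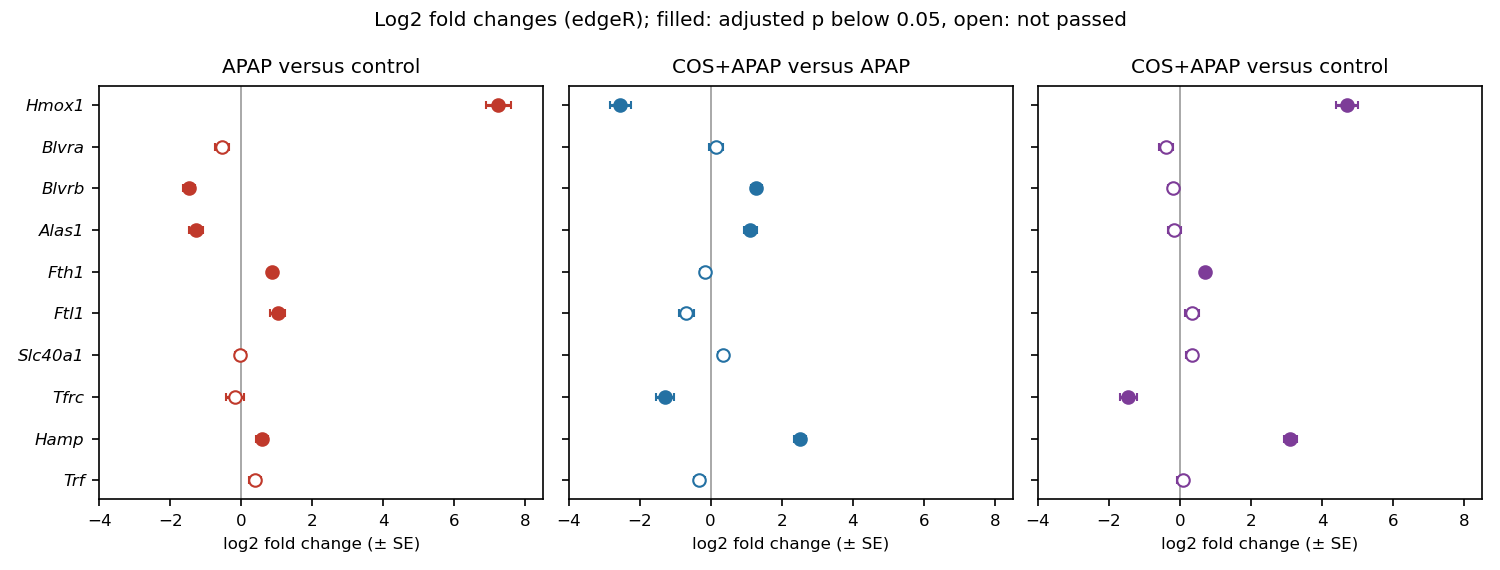
Log2 fold changes of the 10 genes (horizontal axis, edgeR, bars show the standard error) in the 3 comparisons. Filled circles passed the adjusted p threshold of 0.05 and open circles did not. *Hmox1* at 7.24 in APAP versus control and *Hamp* at 2.52 in COS+APAP versus APAP lie farthest from 0 on the higher side of their panels.

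*Hmox1*, the inducible heme oxygenase (ENSMUSG00000005413, chromosome 8, 75093621 to 75100589), stood at 5.28 and 5.35 FPKM in control libraries, at 771.52 and 689.08 in APAP, and at 90.56 and 157.57 with COS+APAP. The 3 groups were fully separate, with COS+APAP between the other two. Its mean moved from 5.315 ± 0.0495 to 730.3 ± 58.3 FPKM (SD, n = 2), placing it 81st among the 10051 tested genes by FPKM in APAP after 4346th in control. The rise after APAP was 151-fold (log2 fold change 7.24 ± 0.36 SE, adjusted p = 0.000878, edgeR). COS+APAP was 5.81-fold below APAP (log2 fold change -2.54 ± 0.29, adjusted p = 0.00768) and 26.0-fold above control (4.70 ± 0.32, adjusted p = 0.00273), with a mean of 124 ± 47.4 FPKM. The 2 COS+APAP libraries differed by 74.0% of the lower value, against 1.33% in control. All 3 calls held with each library left out in turn. The erythroid marker sum, mostly globin RNA, and the monocyte marker sum, mostly *Cd14* and *Thbs1* there, were highest in APAP too. Their part in the *Hmox1* result was not tested.

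*Hmox2*, the constitutive isoenzyme, did not pass in any comparison (log2 fold change 0.37 ± 0.25, adjusted p = 0.268 after APAP), at 9.91 to 18.3 FPKM over all libraries. By FPKM the inducible gene was below *Hmox2* in both control libraries (11.89 and 10.7 for *Hmox2*) and above it in the other 4. Genes that sense heme or act on *Hmox1* were read from a list of 9, all tested. Of these, 4 rose and 0 fell after APAP, beside 45.4% of all tested genes called (23.3% higher and 22.1% lower). *Bach1*, the heme-binding repressor of *Hmox1*, was at 3.39 and 3.2 FPKM in control mice, against 18.88 and 14.53 in APAP mice and 3.56 and 4.26 in COS+APAP mice. It rose after APAP (2.48 ± 0.19, adjusted p = 0.00134), was lower in COS+APAP than in APAP (-2.08 ± 0.19, adjusted p = 0.00589) and did not pass against control (0.40 ± 0.18, adjusted p = 0.177). Transcripts of the repressor and of its target gene were thus highest in the same libraries. The small MAF gene *Mafk* rose by 2.72 after APAP. *Maff*, another partner of NRF2 and BACH1, was at 2.13 and 1.19 FPKM in the controls, 92.29 and 67.48 after APAP alone, and 0.94 and 25.17 after COS and APAP. One COS+APAP library was below both controls and the other between control and APAP. The *Maff* rise after APAP (5.72 ± 1.52, adjusted p = 0.0289) was lost without any single control or APAP library (adjusted p up to 0.132).

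*Nfe2l2*, which encodes the activator NRF2, did not pass after APAP (-0.09 ± 0.17, adjusted p = 0.7), where *Hmox1* rose most. In COS+APAP it was at 6.99 and 8.98 FPKM against 17.05 and 14.73 in APAP, a fall of 0.98 on the log2 scale (adjusted p = 0.018, lost without APAP replicate 1 or COS+APAP replicate 2, up to 0.0781). Of the heme sensor list 0 rose and 5 fell in COS+APAP against APAP, and without 1 library between 2 and 5 fell. Over all tested genes 22.4% were called in that contrast (11.2% higher and 11.1% lower). *Nr1d1*, a clock repressor that binds heme as its ligand, was at 18.43 and 17.51 FPKM in control libraries, at 62.07 and 57.03 in APAP, and at 10.94 and 10.45 with COS+APAP. Its fall of 2.46 from APAP to COS+APAP (adjusted p = 0.00205) held with each library left out, and *Nr1d2* fell by 1.25 (adjusted p = 0.0109, lost without either COS+APAP library, up to 0.0547).

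**Figure D3:**
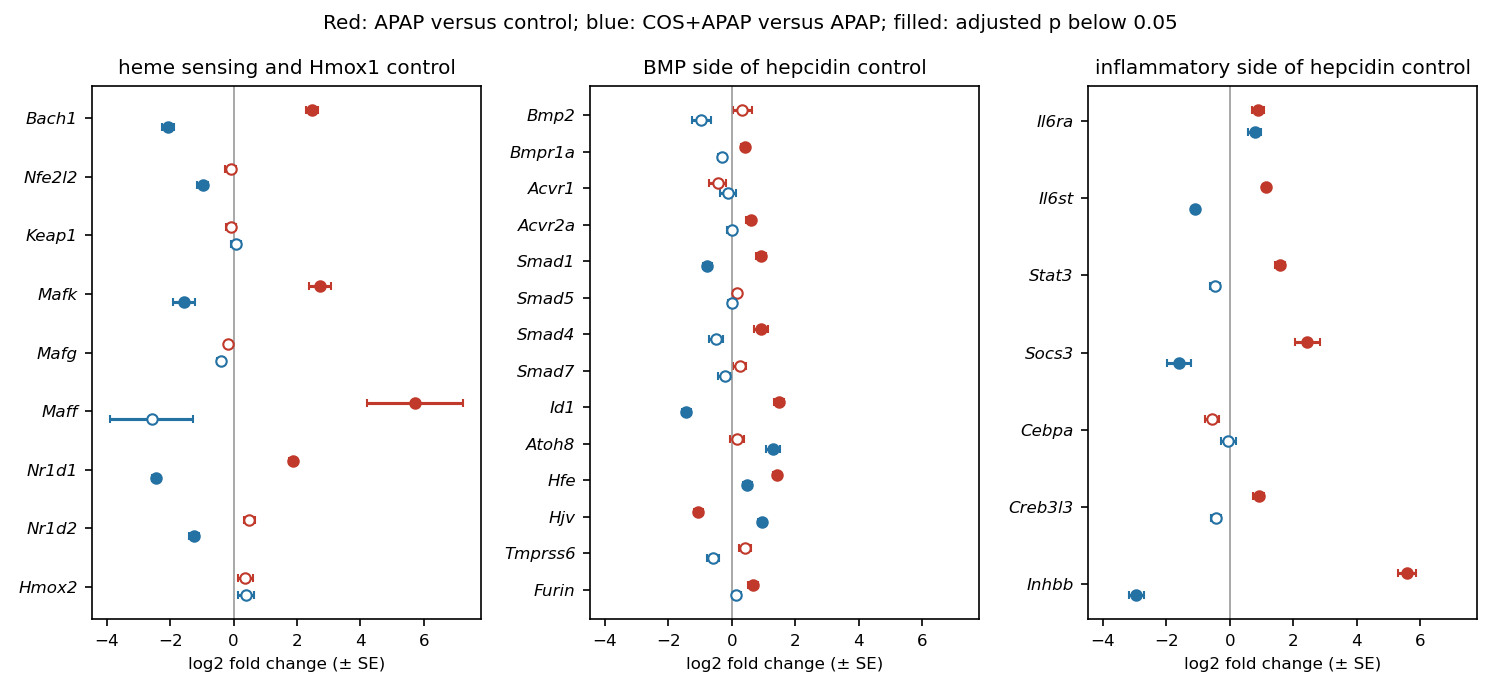
Log2 fold changes (horizontal axis, bars show the standard error) of tested genes that sense heme or act on *Hmox1* (left), of the BMP side (middle) and of the inflammatory side of hepcidin control (right). Red is APAP versus control and blue COS+APAP versus APAP, and filled circles passed the adjusted p threshold of 0.05. *Bach1* (2.48 and -2.08), *Id1* (1.48 and -1.43) and *Inhbb* (5.59 and -2.94) show opposite signs in the 2 comparisons, which share the APAP libraries.

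Biliverdin reductase B, encoded by *Blvrb* (ENSMUSG00000040466, chromosome 7, 27447978 to 27466144), also acts as a flavin reductase. It was at 52.51 and 54.97 FPKM in control mice, against 14.97 and 20.35 in APAP mice and 45.2 and 39.6 in COS+APAP mice. APAP lay apart from both other groups. *Blvrb* fell 2.77-fold after APAP (-1.47 ± 0.16, adjusted p = 0.00233, edgeR) and was 2.44-fold higher in COS+APAP than in APAP (1.28 ± 0.16, adjusted p = 0.00922), and both calls held with each library left out. Against control COS+APAP did not pass (-0.19 ± 0.16, adjusted p = 0.44). *Blvra*, the main adult biliverdin reductase (ENSMUSG00000001999, chromosome 2, 127070665 to 127097084), had low values of 3.62 and 4.9 FPKM in the controls, 2.81 and 2.48 after APAP alone, and 2.96 and 2.87 after COS and APAP. It passed in none of the 3 comparisons. Its APAP contrast (-0.54 ± 0.20, adjusted p = 0.0756) passed with upper-quartile scaling (0.046), with DESeq2 (0.0419), with limma (0.0339 and 0.0323) and without control replicate 1 (0.0496).

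Ratios within a library do not depend on how libraries are scaled. The ratio of *Hmox1* to *Blvrb* (FPKM over FPKM) was 0.101 and 0.0973 in the controls. It was 51.5 and 33.9 in APAP libraries, and 2.00 and 3.98 in COS+APAP libraries. *Blvrb* exceeded *Hmox1* in both control libraries, and the order was the opposite in the other 4. The ratio of *Blvrb* to *Blvra* was 14.5 and 11.2 in the controls, 5.33 and 8.21 in APAP libraries, and 15.3 and 13.8 in COS+APAP libraries. APAP was lower than both other groups without overlap. With 2 libraries against 2 the exact two-sided permutation test cannot give a p below 0.33, the value it gave for both ratios in each contrast with APAP.

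*Alas1* encodes the rate-limiting enzyme of heme synthesis in liver, which heme itself represses (ENSMUSG00000032786, chromosome 9, 106233455 to 106248654). It was at 127.09 and 128.36 FPKM in control libraries, at 38.54 and 57.43 in APAP, and at 100.35 and 104.54 with COS+APAP. The groups were separate, with APAP lowest. *Alas1* fell 2.43-fold after APAP (-1.28 ± 0.19, adjusted p = 0.00487), a call held with each library left out. It was 2.17-fold higher in COS+APAP than in APAP (1.12 ± 0.19, adjusted p = 0.0167, lost without COS+APAP replicate 2 at 0.0645 or replicate 3 at 0.0667). COS+APAP against control did not pass (-0.16 ± 0.19, adjusted p = 0.574). *Alas1* and *Blvrb* thus had the same order of groups, opposite to that of *Hmox1* in the APAP contrasts.

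Of the 8 other heme synthesis genes, all tested, 0 rose and 4 fell after APAP, beside 45.4% of all tested genes called. *Alad*, whose enzyme joins the product of ALAS1 into porphobilinogen, was at 113.1 and 129.11 FPKM in control mice, against 24.33 and 27.72 in APAP mice and 44.86 and 38.25 in COS+APAP mice. It fell by 2.08 ± 0.14 after APAP (adjusted p = 0.00108). It was also lower in COS+APAP than in control (-1.39 ± 0.13, adjusted p = 0.0045), and both of these calls held with each library left out. Whether *Alad* and *Alas1* differ in that contrast was not tested. *Uros* fell by 1.77 after APAP and by 2.01 in COS+APAP against control (the latter lost without COS+APAP replicate 3, adjusted p = 0.0598), and *Ppox* fell by 0.87 after APAP. *Cpox* fell by 0.56 after APAP (lost without control replicate 1 or APAP replicate 1, up to 0.0744). The rises of *Alad* (0.69) and *Cpox* (0.58) in COS+APAP against APAP were each lost in 4 of 6 fits with a library left out (up to 0.107 and 0.121). *Alas2*, the erythroid isoform of the first enzyme, was at 13.1 to 24.6 FPKM and did not pass in any comparison. The median over the 8 genes was -0.38 after APAP and 0.23 in COS+APAP against APAP.

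The ferritin heavy chain *Fth1*, which carries the ferroxidase centre (ENSMUSG00000024661, chromosome 19, 9980598 to 9985092), was at 348.93 and 360.69 FPKM in the controls, 610.17 and 574.47 after APAP alone, and 497.81 and 546.32 after COS and APAP. Control was lowest and the groups were separate. It rose 1.84-fold after APAP (0.88 ± 0.13, adjusted p = 0.00487, held with each library left out). COS+APAP was 1.64-fold above control (0.71 ± 0.13, adjusted p = 0.0192, lost without any single control or COS+APAP library, up to 0.0983) and did not pass against APAP (-0.16 ± 0.13, adjusted p = 0.394). The light chain *Ftl1*, which serves mineral formation in the core (ENSMUSG00000050708, chromosome 7, 45457944 to 45459884), was at 2038.12 and 1473.4 FPKM in control libraries, at 3155.43 and 3329.88 in APAP, and at 1894.16 and 2099.55 with COS+APAP. APAP was separate from both other groups, which overlapped each other. *Ftl1* rose 2.03-fold after APAP (1.02 ± 0.20, adjusted p = 0.0109). Its difference from APAP to COS+APAP (-0.68 ± 0.20, adjusted p = 0.0621) did not pass here, and passed with DESeq2 (0.00484), with limma (0.0493 and 0.0497), in the 4 libraries alone (0.0342) and without either control library (0.0323 and 0.034).

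The ratio of *Fth1* to *Ftl1* by FPKM was 0.171 and 0.245 in the controls, 0.193 and 0.173 in APAP libraries, and 0.263 and 0.260 in COS+APAP libraries. Light-chain RNA thus exceeded heavy-chain RNA in each of the 6 libraries. The ratio in COS+APAP lay above that of all 4 other libraries (log2 difference from APAP 0.52, exact permutation p = 0.33, the smallest possible). Light-chain copies can share reads with *Ftl1*. The entries *Ftl1-ps1* (49.4 to 103.3 FPKM) and *Ftl2-ps* (36.4 to 98.4 FPKM) had small levels beside it, and *Ftl1-ps1* moved with the same sign (1.05 after APAP, -0.77 in COS+APAP against APAP). *Ncoa4*, the receptor that delivers ferritin to lysosomes, was at 5.94 and 2.11 FPKM in control mice, against 3.09 and 5.13 in APAP mice and 8.97 and 15.14 in COS+APAP mice. COS+APAP was separate from both groups, but no contrast passed (1.58 ± 0.56, adjusted p = 0.0985 against APAP).

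**Figure D4:**
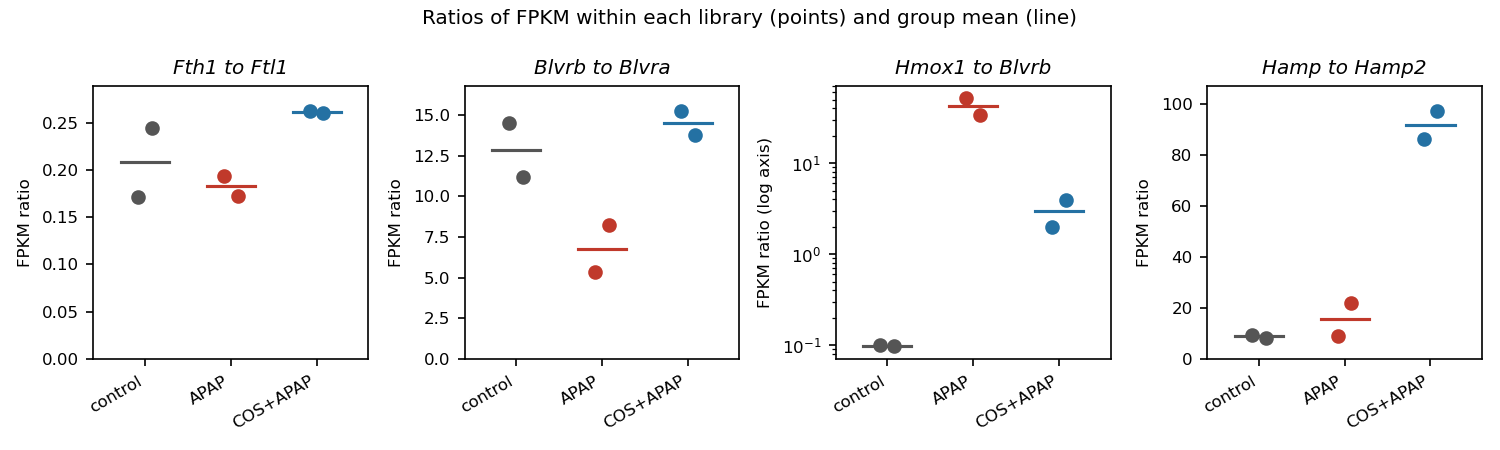
Ratios of FPKM within each library (vertical axes, linear from 0 except the log axis for *Hmox1* to *Blvrb*) for *Fth1* to *Ftl1*, *Blvrb* to *Blvra*, *Hmox1* to *Blvrb* and *Hamp* to *Hamp2*. Points are the 2 libraries of each group and lines group means. *Hamp* to *Hamp2* lies at 86.2 and 97.5 in COS+APAP and between 8.15 and 22.1 in the other 4 libraries.

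*Hamp*, the hepcidin gene (ENSMUSG00000050440, chromosome 7, 30942368 to 30944032), was at 282.59 and 260.29 FPKM in the controls, 337.44 and 407.36 after APAP alone, and 1837.65 and 2358.53 after COS and APAP. The COS+APAP libraries lay far above the other 4. *Hamp* was 5.72-fold higher in COS+APAP than in APAP (2.52 ± 0.18, adjusted p = 0.00423, edgeR) and 8.62-fold higher than in control (3.11 ± 0.18, adjusted p = 0.00227), and both calls held with each library left out. By FPKM it was the 46th gene in COS+APAP, after 163rd in control and 144th in APAP. The smaller rise after APAP alone (0.59 ± 0.17, adjusted p = 0.0354) was lost without any single control or APAP library (0.0632 to 0.146), with upper-quartile scaling (0.0604), with limma (0.0835 and 0.083) and without the filter on low values (0.0612).

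The copy *Hamp2* (ENSMUSG00000056978, chromosome 7, 30922372 to 30924181) was at 30.3 and 31.95 FPKM in control libraries, at 37.22 and 18.45 in APAP, and at 21.32 and 24.2 with COS+APAP. It passed in none of the comparisons (-0.28 ± 0.34, adjusted p = 0.586 for COS+APAP against APAP). The ratio of *Hamp* to *Hamp2*, added after the data were seen, was 9.33 and 8.15 in the controls, 9.07 and 22.1 in APAP libraries, and 86.2 and 97.5 in COS+APAP libraries. The copies can share reads. With their counts summed, COS+APAP remained above APAP by 2.37 and above control by 2.74 on the log2 scale of mean counts per library total (2.49 and 2.93 for *Hamp* alone).

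Hepcidin transcription is driven by BMP signals through SMAD proteins and by interleukin 6 through STAT3. Of 14 tested genes on the BMP side (of 19 listed) 7 rose and 1 fell after APAP, beside 45.4% of all tested genes called. In COS+APAP against APAP 3 rose and 2 fell, beside 22.4%. With 1 library left out the counts were 4 to 6 and 1, and 0 to 2 and 1 to 2. *Id1*, a direct BMP target, was at 4.04 and 4.37 FPKM in control mice, against 10.59 and 10.84 in APAP mice and 4.16 and 3.7 in COS+APAP mice. *Id1* thus fell by 1.43 ± 0.16 from APAP to COS+APAP (adjusted p = 0.0074, held with each library left out), the contrast in which *Hamp* rose. *Smad7*, another BMP target, was at 0.86 to 1.15 FPKM and passed in none. *Atoh8*, a BMP-responsive factor that acts on hepcidin, was at 4.3 and 3.02 FPKM in the controls, 3.45 and 3.99 after APAP alone, and 10.12 and 7.99 after COS and APAP, and rose by 1.3 ± 0.23 over APAP (adjusted p = 0.0178, lost without any single APAP or COS+APAP library, up to 0.0906). The ligand gene *Bmp6*, made by sinusoidal endothelium, was below the filter at 0.78 and 0.5 FPKM in control, 1.3 and 1.37 in APAP, and 0.46 in both COS+APAP libraries, and was not tested. The endothelial marker sum was also lowest in COS+APAP, although *Stab1* of that list was highest there and *Stab2* did not pass. The part of endothelial RNA in the *Bmp6* values was not tested.

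Among the membrane proteins of this pathway, *Hjv*, the BMP coreceptor hemojuvelin, was at 41.06 and 45.96 FPKM in control libraries, at 16.84 and 21.4 in APAP, and at 36.11 and 37.05 with COS+APAP. It fell by 1.05 ± 0.14 after APAP (adjusted p = 0.00354) and was 0.96 ± 0.14 higher in COS+APAP than in APAP (adjusted p = 0.0117, up to 0.0521 without APAP replicate 1 or either COS+APAP library). *Hfe*, the hemochromatosis protein that senses iron with transferrin receptor 2, was at 4.41 and 3.97 FPKM in control mice, against 9.83 and 10.62 in APAP mice and 13.24 and 15.2 in COS+APAP mice. *Hfe* rose by 1.42 after APAP and by 1.92 in COS+APAP over control (adjusted p = 0.00176 and 0.00299), and both calls held with each library left out. Its call between COS+APAP and APAP (0.49, adjusted p = 0.0499) was lost with any single library left out. *Tmprss6*, the protease that cleaves hemojuvelin, passed in none (-0.58 ± 0.18, adjusted p = 0.0765 against APAP).

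On the inflammatory side, 6 of 7 tested genes (of 9 listed) rose and 0 fell after APAP, beside 45.4% of all tested genes called. Their median was 1.14. In COS+APAP against APAP 1 rose and 3 fell, beside 22.4% of all tested genes, with a median of -0.45. *Il6* was listed at 0 in all 6 libraries, which allows up to 12 estimated counts in each (3 fragments, counting error only). *Il6ra*, the interleukin 6 receptor, was at 4.35 and 3.09 FPKM in the controls, 5.67 and 6.99 after APAP alone, and 10.89 and 10.62 after COS and APAP, a rise of 1.69 ± 0.20 over control (adjusted p = 0.00717). Its rise over APAP (0.79, adjusted p = 0.0409) was lost without any single APAP or COS+APAP library (up to 0.168). *Il6st*, the shared signal transducer gp130, rose by 1.14 after APAP and fell by 1.09 ± 0.10 from APAP to COS+APAP (adjusted p = 0.00589). *Stat3* rose by 1.58 after APAP and by 1.12 in COS+APAP over control (the latter lost without control replicate 3, 0.0526). *Socs3*, a STAT3 target and feedback inhibitor, was at 4.57 and 4.84 FPKM in control libraries, at 26.72 and 19.63 in APAP, and at 4.78 and 10.26 with COS+APAP. Its fall from APAP to COS+APAP (-1.60 ± 0.39, adjusted p = 0.0375) was lost in 5 of the 6 fits with a library left out. *Inhbb*, which encodes the activin B subunit, an inducer of hepcidin, was at 0.1 and 0.12 FPKM in control mice, against 5.41 and 4.28 in APAP mice and 0.53 and 0.71 in COS+APAP mice, and fell by 2.94 ± 0.25 from APAP to COS+APAP (adjusted p = 0.00555). The 2 lists were mixed. Of their genes called in COS+APAP against APAP, *Id1*, *Smad1*, *Il6st*, *Socs3* and *Inhbb* fell, while *Atoh8*, *Hfe*, *Hjv* and *Il6ra* rose, as *Hamp* did. In that contrast the medians of both lists were below 0 (-0.17 on the BMP side and -0.45 on the inflammatory side).

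Ferroportin, the only known iron exporter of vertebrate cells, is encoded by *Slc40a1* (ENSMUSG00000025993, chromosome 1, 45908068 to 45926523). It was at 5.93 and 7.06 FPKM in the controls, 5.98 and 5.63 after APAP alone, and 8.03 and 6.55 after COS and APAP. Control overlapped both other groups. *Slc40a1* passed in none of the comparisons, with log2 differences of -0.02 ± 0.15, 0.35 ± 0.15 and 0.32 ± 0.15 (adjusted p = 0.917, 0.152 and 0.178). The RNA of the exporter was thus not called lower in the group with the highest hepcidin RNA, and protein was not measured. *Cp*, the circulating ferroxidase ceruloplasmin, was at 53.0 to 68.0 FPKM and rose by 0.44 in COS+APAP over control (adjusted p = 0.0415, lost with any single library left out).

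The transferrin receptor *Tfrc* (ENSMUSG00000022797, chromosome 16, 32608920 to 32632794) was at 7.86 and 7.49 FPKM in control libraries, at 7.28 and 5.06 in APAP, and at 2.13 and 2.89 with COS+APAP. COS+APAP was separate from all other libraries. *Tfrc* did not pass after APAP (-0.17 ± 0.24, adjusted p = 0.595). It fell 2.43-fold from APAP to COS+APAP (-1.28 ± 0.25, adjusted p = 0.0222), a call lost without APAP replicate 1 (0.0758), COS+APAP replicate 2 (0.0935) or COS+APAP replicate 3 (0.0523). Against control it was 2.74-fold lower (-1.45 ± 0.25, adjusted p = 0.0162, lost without any single control or COS+APAP library, up to 0.0669). Of the genes with iron-responsive elements printed above, the uptake gene was the one that passed in COS+APAP against APAP by this test. *Ftl1* (-0.68, adjusted p = 0.0621), *Fth1* (-0.16, 0.394) and *Slc40a1* (0.35, 0.152) did not pass, although *Ftl1* did with other settings, as given above. Differences between these 4 responses were not tested. *Aco1* and *Ireb2*, the genes of the iron regulatory proteins, were also measured. *Aco1* fell by 0.38 after APAP (adjusted p = 0.0301, lost with any single library left out) and by 0.51 in COS+APAP against control (adjusted p = 0.025, lost without any single control or COS+APAP library, up to 0.109). *Ireb2* passed in none of the comparisons.

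*Trf*, which encodes transferrin, the plasma iron carrier (ENSMUSG00000032554, chromosome 9, 103204001 to 103230444), was at 2498.82 and 2298.35 FPKM in control mice, against 2999.93 and 2719.83 in APAP mice and 2312.88 and 2224.83 in COS+APAP mice. It passed in none of the comparisons (0.39 ± 0.16, -0.32 ± 0.16 and 0.08 ± 0.16, adjusted p = 0.0993, 0.211 and 0.771). After APAP *Trf* did pass with DESeq2 (0.0106) and with a minimum mean of 5 FPKM (0.0462). *Tfr2*, the second transferrin receptor and an iron sensor of hepatocytes, was at 47.69 and 41.23 FPKM in the controls, 55.2 and 91.26 after APAP alone, and 62.88 and 64.28 after COS and APAP, and its rise after APAP (0.85, adjusted p = 0.0319) was lost in 5 of 6 fits with a library left out.

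Of the iron uptake and reduction genes, 7 of 9 were tested, and 3 rose and 1 fell after APAP, beside 45.4% of all tested genes called. *Slc39a14*, the importer ZIP14 of iron that is not bound to transferrin, was at 10.99 and 8.88 FPKM in control libraries, at 42.79 and 34.71 in APAP, and at 15.19 and 21.07 with COS+APAP. It rose by 2.10 ± 0.24 after APAP (adjusted p = 0.00242) and fell by 1.08 ± 0.23 from APAP to COS+APAP (adjusted p = 0.0272, lost without either APAP library or COS+APAP replicate 2, up to 0.113). *Lcn2*, which binds iron-carrying siderophores, was at 3.16 and 3.34 FPKM in control mice, against 26.87 and 72.76 in APAP mice and 378.29 and 412.49 in COS+APAP mice. It rose by 4.06 after APAP and by a further 3.02 ± 0.45 in COS+APAP (adjusted p = 0.013), and its calls held with each library left out.

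Hemopexin and haptoglobin clear free heme and hemoglobin from plasma. *Hp* was at 2489.6 and 2254.38 FPKM in the controls, 2394.71 and 2743.72 after APAP alone, and 9314.14 and 11663.9 after COS and APAP, and rose by 2.05 ± 0.20 over APAP (adjusted p = 0.00594, held with each library left out). *Hpx* was at 2197.32 and 2139.25, 3363.42 and 3410.91, and 5535.15 and 7609.2 FPKM. *Hpx* rose by 0.78 after APAP (adjusted p = 0.0256, lost without any single control or APAP library) and by 0.98 in COS+APAP over APAP (adjusted p = 0.0253, lost without either APAP library or COS+APAP replicate 3, up to 0.124). *Cd163*, the scavenger receptor of hemoglobin bound to haptoglobin and a Kupffer cell marker, was at 1.7 to 3.64 FPKM and rose by 0.90 after APAP (lost in 3 of 6 fits). *Slc48a1*, which carries heme out of lysosomes, was at 16.25 and 16.36 FPKM in control libraries, at 31.39 and 35.13 in APAP, and at 33 and 32.31 with COS+APAP, so both groups given APAP lay above control. Its log2 fold changes over control were 1.16 ± 0.10 in both groups (adjusted p = 0.00152 and 0.00372), and COS+APAP differed from APAP by -0.01 ± 0.10. *Abcb10*, a mitochondrial transporter of the heme pathway, fell by 1.58 after APAP (adjusted p = 0.00144) and did not pass between COS+APAP and APAP. *Flvcr2*, a relative of the heme exporter, rose by 1.15 in COS+APAP over APAP (lost without any single APAP or COS+APAP library).

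Iron reaches heme and iron-sulfur proteins in mitochondria. All 10 listed genes of this step were tested, and 2 rose and 5 fell after APAP (0 to 2 and 2 to 5 with a library left out). *Slc25a37*, the iron importer mitoferrin 1, was at 12.85 and 15.82 FPKM in control mice, against 8.38 and 7.12 in APAP mice and 4.17 and 3.75 in COS+APAP mice, and was lower in COS+APAP than in control by 1.70 on the log2 scale (-1.70 ± 0.16, adjusted p = 0.00452, held with each library left out). Across all 10 lists around the members, 72 of 85 genes were tested, of which 25 rose and 13 fell after APAP, 12 rose and 12 fell in COS+APAP against APAP, and 18 rose and 13 fell in COS+APAP against control. Over all tested genes 45.4%, 22.4% and 21.0% were called. With 1 library left out the listed genes gave 16 to 22 rises and 8 to 12 falls after APAP, 2 to 11 and 5 to 11 in COS+APAP against APAP, and 8 to 16 and 4 to 12 in COS+APAP against control. Medians with all libraries were 0.25, -0.05 and 0.05.

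By level, the order in control was *Trf*, *Ftl1*, *Fth1*, *Hamp*, *Alas1*, *Blvrb*, *Tfrc*, *Slc40a1*, *Hmox1* and *Blvra*, and no neighbours in it overlapped between libraries. In APAP the order opened with *Ftl1*, *Trf* and *Hmox1*, and the only neighbours that overlapped were *Tfrc* and *Slc40a1*. In COS+APAP the range of *Hamp* overlapped those of *Trf* and *Ftl1* at the top, as did those of *Hmox1* and *Alas1* in the middle, and those of *Blvra* and *Tfrc* at the bottom. The genes with the profile closest to a member were found by the root mean square difference of log2(FPKM + 1), centred over the 6 libraries. For *Hmox1* they were *Cdkn1a* (0.62), *Atf3* (0.66) and *Cidec* (0.70), and for *Hamp* they were *Fgl1* (0.13), *Orm3* (0.31) and *Lrg1* (0.32). *Fgl1* was at 59.36 and 60.04 FPKM in the controls, 63.08 and 81.55 after APAP alone, and 371.93 and 414.53 after COS and APAP. *Tfrc* had *Tgtp2* (0.07), *Nfe2l2* (0.11) and *Afm* (0.13) as its nearest genes. *Slc40a1*, whose profile is nearly flat, had *Zfp84*, *Maip1* and *Gm20324* (each 0.05).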

How the data were processed

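RNA of 6 mouse liver libraries was sequenced as read pairs after poly(A) selection, per the labels' protocols. Per the submitters' processing notes, HISAT2 2.0 and StringTie 1.3.0 were used. No source used here names the genome build. The deposited coordinates equal those of GENCODE release M21 (GRCm38) for 94.2% of 55141 shared identifiers and for 9 of the 10 genes described. Per the file headers, the authors deposited estimated counts and FPKM values for each gene in each library. The estimated counts were whole and entered the test unchanged. Low counts were most frequent at 4, so a fragment was taken as about 4 counts. A further 6 columns matched no sample and were not used. Genes with a mean of at least 1 FPKM were tested with edgeR 4.0.16 (R 4.3.3, quasi-likelihood F test, TMM scaling, two-sided, 1 model of 3 groups with 3 residual degrees of freedom, Benjamini-Hochberg adjustment over 10051 genes). The standard error is the log2 fold change over the square root of F. limma 3.58.1 and DESeq2 1.42.0 served as alternatives. The edgeR step was tested on simulated data. It recovered 14 of 100 genes changed by 1 on the log2 scale and 85 of 100 changed by 2, with 7 false calls. A gene that did not pass is therefore not shown to be unchanged. In the simulation no other genes were changed, while 45.4% of the tested genes were called after APAP in the data. The shares recovered therefore need not hold for the comparisons here. The 10 genes were all named. From each surrounding list, the 3 largest called changes per comparison and fixed partners of the 10 were named, and for 4 genes the 3 nearest profiles. The genes and lists were chosen with earlier results of these data known. *Fth1*, *Ftl1*, *Hamp* and the globins have near-identical copies, and reads of overlapping genes cannot be separated by strand here. Promoter sequences are from RefSeq (GRCm38.p6).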

Additional observations from a re-analysis of the deposited data

How the results depend on the processing

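Calls over all genes, 4561 after APAP, 2249 in COS+APAP against APAP and 2109 in COS+APAP against control, went to 2301, 1093 and 1295 with a minimum mean of 5 FPKM (4488 genes tested) and, for the contrasts with COS+APAP, to 3552 and 3422 with DESeq2. With 1 library left out they ranged from 3044 to 4117, 612 to 1941 and 590 to 1724. Among the 10 genes, 4 were lower in COS+APAP against APAP with DESeq2. With 1 library left out, 1 to 3 were lower in that contrast, and 0 to 1 in COS+APAP against control. Signs turned for differences that had not passed. *Slc40a1* after APAP ranged from -0.13 to 0.10 with 1 library left out (0.10 without control replicate 3, 0.046 without APAP replicate 3), *Tfrc* after APAP from -0.49 to 0.088 (without APAP replicate 3), and *Trf* in COS+APAP against control was -0.079 with limma at either pseudocount (0.1 or 1). Of the single-gene results with a library left out, 157 kept direction and side of the threshold, 17 lost the call, 3 gained it and 3 turned, and with other settings 288, 6, 11 and 2. The cause was not tested. Upper-quartile scaling moved the median of all genes to -0.12 after APAP and 0.12 in COS+APAP against APAP (1567 higher and 930 lower, beside 1130 and 1119). limma on FPKM moved it to -0.10 after APAP (1928 higher and 2813 lower, beside 2342 and 2219) and -0.11 in COS+APAP against control (681 and 1638, beside 1073 and 1036). The difference between replicates 1 and 3 in control did not correlate with that in APAP (r = -0.00523 across 10051 genes). A single correlation cannot show whether libraries of the same number were paired. With a replicate block in these 4 libraries 3187 genes were called and 2 of the 10 genes were higher, *Ftl1* (1.04, adjusted p = 0.051) and *Hamp* (0.59, 0.0591) being lost. No paired analysis was possible for COS+APAP because it shares a single number with each other group.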
